A study of Mus musculus with 12 samples.

Results

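The genes described here encode the core proteins of the spliceosome and the 2 large families of RNA-binding proteins that steer it. They were chosen by symbol alone: protein-coding genes with a mean of at least 10 over the 12 mice whose mouse symbols belong to the Sf3, U2af, Snrp, Prpf, Lsm, Cwc, Srsf or Hnrnp families. The rule took 79 of the 19312 genes in the table. These were 20 Hnrnp, 13 Prpf, 12 Snrp, 11 Srsf, 9 Sf3, 7 Lsm, 4 Cwc and 3 U2af genes. All 79 had a value above 0 in every mouse, and each was tested in every comparison.

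RNA was sequenced from 12 male C57BL/6N mice, 3 in each of 4 groups. WT-Veh and WT-Mem mice were wild-type, whereas KO-Veh and KO-Mem mice carried a homozygous deletion of Shank2 exons 6 and 7. Mem groups received 20 mg/kg memantine, an open-channel blocker of NMDA receptors, by mouth 2 times a day from P7 to P21 in 0.1% saccharin, Veh groups received the vehicle on the same days, and brains were taken at P25 after the dosing had ended. The tissue was described as whole brain in the sample labels and as forebrain without cerebellum and brain stem in the study's methods. Each mouse was a library of its own, made with an unstranded poly(A) kit.

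Splicing removes introns in 2 chemical steps carried out by the spliceosome. The U1 particle recognizes the 5′ splice site, U2af proteins bind the 3′ splice site, and the U2 particle, with the SF3a and SF3b complexes, binds the branch point. The U4/U6.U5 tri-snRNP, which holds most Prpf proteins, then joins and is remodelled into the active enzyme, with Cwc proteins entering at activation. Sm proteins (among them Snrpb, Snrpn and Snrpg) and Lsm proteins form rings on the small nuclear RNAs. SR proteins (Srsf) mostly promote the use of exons to which they bind, and hnRNPs often counteract them, so that the balance of these families sets many alternative exons in neurons.

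Shank2 itself was first examined in every mouse. Its normalized counts were 8248, 7427 and 8325 for the WT-Veh mice, 7936, 8548 and 7156 for the WT-Mem mice, 3053, 3006 and 2723 for the KO-Veh mice and 2817, 2706 and 3178 for the KO-Mem mice. Every KO mouse was therefore below every WT mouse. Sums over all genes ran from 30373849 to 31199251 per mouse, but since the values had been scaled to each other they are not depths. The 10 highest genes held 4.35% to 6.10% of a mouse's total. The table gives values per gene and not per exon, so the KO values include exons outside the deletion. Among KO-Mem mice, KO-Mem 3 lay apart from the others. The KO-M/WT-V comparison called 595 genes with all mice and 2490 without KO-Mem 3. Results that rest on this mouse are given with and without it.

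Levels of the 79 genes differed widely. Per kilobase of transcript, their median was 765 normalized counts over the 12 mice. Snrpn, the Sm ring protein that takes the place of Snrpb in neurons, was the highest at 10491 per kb. It was followed by the exon-silencing Hnrnpa2b1 at 5525 and the SR protein Srsf5 at 4769 per kb. Snrpn lay above the other members in every mouse, whereas the ranges of Hnrnpa2b1 and Srsf5 over mice overlapped. Lowest was Prpf4, a U4/U6 particle protein, at 120 per kb. By family, the median level per kb was 1508 in Hnrnp (lowest Hnrnph3, 426), 1217 in Srsf (lowest Srsf12, 177), and 1128 in U2af, where U2af2 reached 2117 and U2af1l4 675. The Snrp median was 694 per kb, with Snrpb2 lowest at 221, and the Sf3 median was 583, from Sf3b5 at 223 to Sf3b2 at 1905. Prpf genes had a median of 419 per kb with Prpf19 the highest at 1540. The Lsm median was 397, from Lsm5 at 128, whose range over mice overlapped that of Prpf4, to Lsm4 at 993, and the Cwc median was 188, from Cwc22 at 151 to Cwc15 at 1068. Within a group of 3 mice the normalized count of a member varied by a median coefficient of variation of 5.51%.

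**Figure D1:**
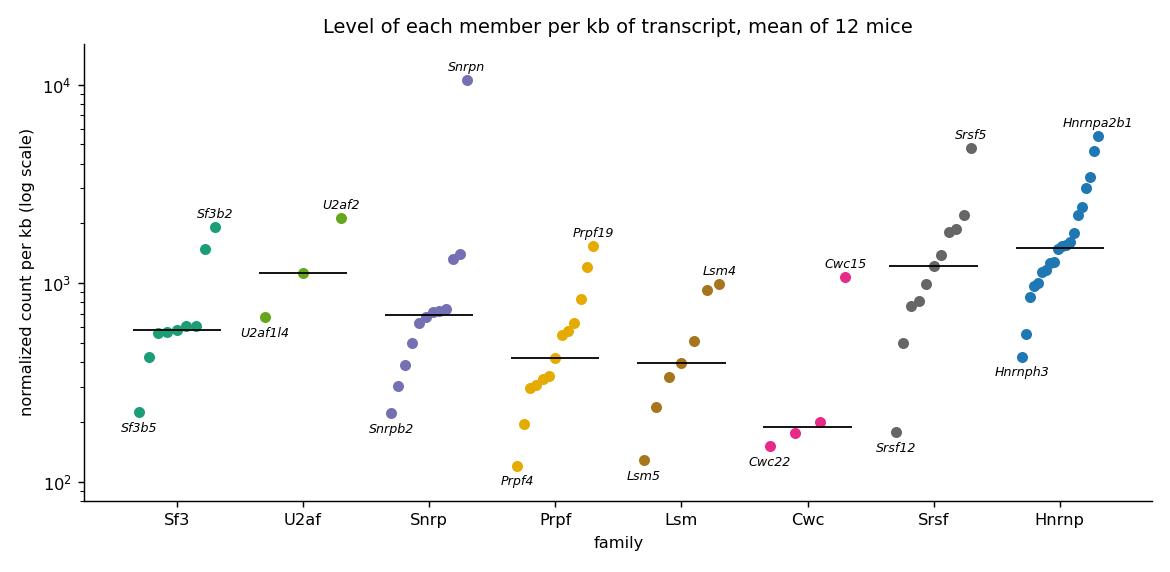
Mean normalized count per kb of transcript over 12 mice (log axis) for each of the 79 genes, grouped by family; each point is a gene and the bar is the family median. Snrpn stands highest at 10491 per kb and Prpf4 lowest at 120 per kb, and the Hnrnp and Srsf medians (1508 and 1217) lie above the Cwc median (188).

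Some of these genes share sequence with other genes, which limits how far reads could be assigned to them. Of the stretches of 31 bases in its annotated transcripts, Snrpf shared 92.1% with another gene, U2af1l4 70.8%, Srsf4 66.5%, Hnrnpf 66.2%, Sf3b4 57.9% and Snrpn 34.5%. Among the genes discussed most below, the share was 49.4% for Hnrnpa1, 43.8% for Cwc22, 14.5% for Hnrnpc, 12.7% for Prpf39, 8.74% for Hnrnpr, 8.69% for Hnrnpa2b1, 7.77% for Hnrnph1 and 5.89% for Cwc27. Sf3b1, Hnrnpu, Hnrnpll and Hnrnpa0 shared none. Because the kit did not keep the strand, reads from overlapping genes such as Prpf39 and Fkbp3 cannot be told apart where they overlap.

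The difference between KO and WT mice was first tested over all 12 mice, with treatment as a covariate (6 mice against 6). With limma, 12 members passed an adjusted p of 0.05. Cwc22, Cwc27, Prpf39, Sf3b1, Hnrnpr, Hnrnpa0, Hnrnpu and Hnrnpll were higher in KO mice, and Hnrnpc, Hnrnpa1, Hnrnph1 and Hnrnpa2b1 were lower. These 12 of 79 compare with 1907 of all 17655 genes tested (10.8%), of which 863 (4.89%) were higher and 1044 (5.91%) were lower. Calls were more frequent among well-expressed coding genes. Of the 11124 protein-coding genes with a mean of at least 200, 590 were called higher and 839 lower. At an unadjusted p under 0.05, 14 members were higher and 10 were lower, where 14.3% and 15.1% of all genes were. Among the protein-coding genes with a mean of at least 200 these shares were 15.4% and 18.1%. The median log2 fold change was 0.03 over the members and 0.00 over all genes, and 48 of 79 members (60.8%) lay above 0, against 50.9% of all genes. Fold changes here and below are on the scale of log2(normalized count + 1).

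**Figure D2:**
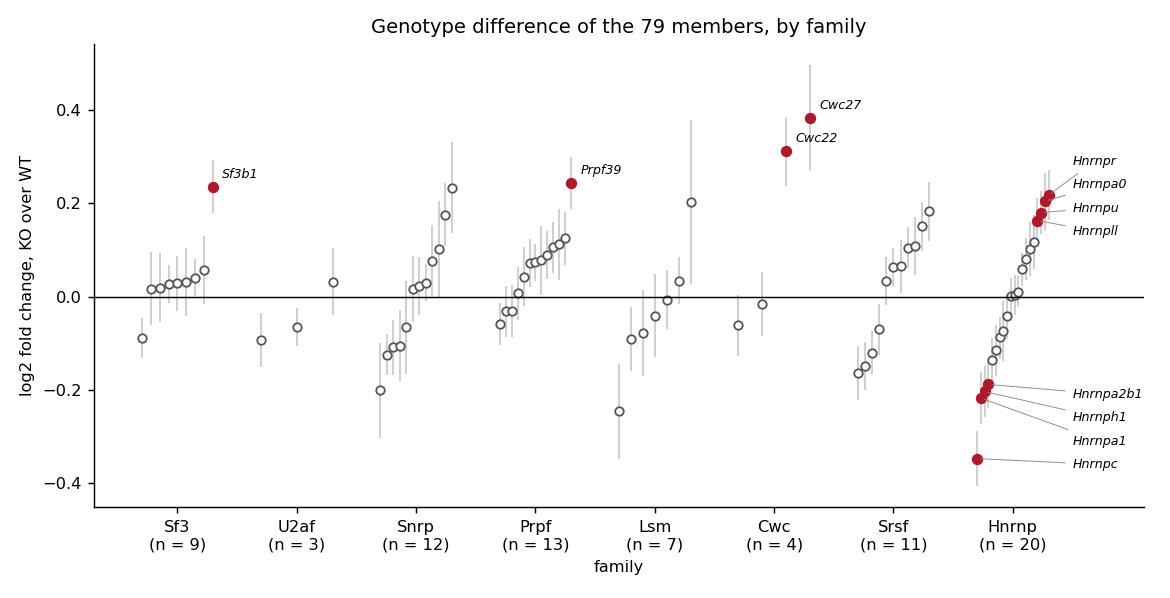
Log2 fold change of KO over WT (6 mice against 6, limma with treatment as a covariate) for each of the 79 genes by family; bars are the moderated SE and filled points passed an adjusted p of 0.05. The called genes lie between 0.16 and 0.38 or between -0.35 and -0.19, with 4 in each direction in the Hnrnp family and none in Snrp, Lsm, U2af and Srsf.

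By family, the called genes fell unevenly. In Sf3, 1 of 9 rose and 8 of 9 lay above 0. In Prpf, 1 of 13 rose and 10 lay above 0. Of the 4 Cwc genes 2 rose. Of the 20 Hnrnp genes, 4 rose and 4 fell. None of the 12 Snrp, 11 Srsf, 7 Lsm and 3 U2af genes was called in limma, although 3 Srsf genes had an unadjusted p under 0.05 in each direction, as did 2 Snrp genes above 0 and 1 below, and 1 Lsm gene below 0. Whether families differed from each other was not tested.

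Sf3b1 encodes the SF3b subunit that clamps the branch point adenosine, and it spans chr1:54985169-55027481 on the minus strand (GRCm38). Its normalized counts were 8777, 8098 and 8031 in WT-Veh mice and 8691, 8973 and 8071 in WT-Mem mice. They were 8968, 9070.4 and 9264 in KO-Veh mice and 11987, 11032 and 9628 in KO-Mem mice. KO-Mem mice were the highest, every one of them above all other mice, while KO-Veh 1 lay just under the highest WT mouse. The log2 fold change of KO over WT was 0.24 (SE 0.06, limma adjusted p 0.0213).

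Prpf39, a U1-associated protein that helps to recognize 5′ splice sites, spans chr12:65036333-65063386 on the plus strand. Normalized counts of Prpf39 were 1288, 1215 and 1257 for the WT-Veh mice, 1246, 1337 and 1216 for the WT-Mem mice, 1411, 1401 and 1448 for the KO-Veh mice and 1704, 1617 and 1394 for the KO-Mem mice. All 6 KO mice exceeded all 6 WT mice (log2 fold change 0.24, SE 0.05, limma adjusted p 0.0164).

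Cwc22 binds the exon junction complex component Eif4a3 and is needed for the first step of splicing. In WT mice it ranged from 393 to 468 and in KO mice from 508 to 656, so the genotypes did not overlap (log2 fold change 0.31, SE 0.07, adjusted p 0.0199). Cwc27, a cyclophilin-like protein of the activated spliceosome, was at 297, 324 and 314 for the WT-Veh mice, 289.6, 299.8 and 357 for the WT-Mem mice, 359, 332 and 401 for the KO-Veh mice and 586, 473 and 350.0 for the KO-Mem mice. Its genotypes overlapped, and 2 KO-Mem mice were far above the third (log2 fold change 0.38, SE 0.11, adjusted p 0.0437). The other Cwc genes lay slightly below 0, Cwc15 at -0.06 and Cwc25, chosen after its values were seen, at -0.02 (limma adjusted p 0.559 and 0.904).

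Hnrnpc, which coats nascent transcripts and blocks U2af2 from false 3′ splice sites, fell the most of the 79 genes. It spans chr14:52073377-52104028 on the minus strand. Hnrnpc was at 3981, 4817 and 4145 for the WT-Veh mice, 4162, 4067 and 3908 for the WT-Mem mice, 3545, 3559 and 3581 for the KO-Veh mice and 2708.5, 3004 and 3370.0 for the KO-Mem mice. Every KO mouse was below every WT mouse, and KO-Mem mice were the lowest. The log2 fold change was -0.35 (SE 0.06, limma adjusted p 0.00705).

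The other 3 hnRNP genes that fell encode regulators that bind exonic or intronic silencers. Hnrnpa2b1, with 9343 to 10415 in WT mice and 7209 to 9196 in KO mice, did not overlap between genotypes (log2 fold change -0.19, SE 0.05, adjusted p 0.0317). Hnrnpa1 was at 5669, 5744 and 5181 for the WT-Veh mice, 5827, 5594 and 5726 for the WT-Mem mice, 4499, 5551 and 4692 for the KO-Veh mice and 4638, 4491 and 5213 for the KO-Mem mice. A single KO-Veh mouse and a single KO-Mem mouse thus reached into the WT range (log2 fold change -0.22, SE 0.06, adjusted p 0.0260). For Hnrnph1 the counts were 5219, 5529.8 and 5417 for the WT-Veh mice, 5078, 5073 and 5138 for the WT-Mem mice, 5118, 4768 and 4355 for the KO-Veh mice and 3942, 4276 and 4952 for the KO-Mem mice. Only KO-Veh 1 overlapped the WT mice (log2 fold change -0.20, SE 0.05, adjusted p 0.0292).

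Another 4 hnRNP genes rose, each by less than Hnrnpc fell. Hnrnpr, an mRNA-binding protein also found in axons, was at 2248 to 2521 in WT mice and 2463 to 3059.9 in KO mice (log2 fold change 0.22, SE 0.05, adjusted p 0.0239). Hnrnpu, a scaffold protein of nuclear RNA and chromatin, was at 10869 to 12113 in WT and 11954 to 14260.2 in KO mice (0.18, SE 0.05, adjusted p 0.0259). Hnrnpa0, which binds AU-rich elements, was at 2284 to 3304 in WT and 3109 to 3809 in KO mice (0.20, SE 0.06, adjusted p 0.0448). Hnrnpll, known for the switch of CD45 exons in T cells, was at 1454 to 1695 in WT and 1629 to 1988 in KO mice (0.16, SE 0.05, adjusted p 0.0434). In all 4 of these genes the genotypes overlapped.

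**Figure D3:**
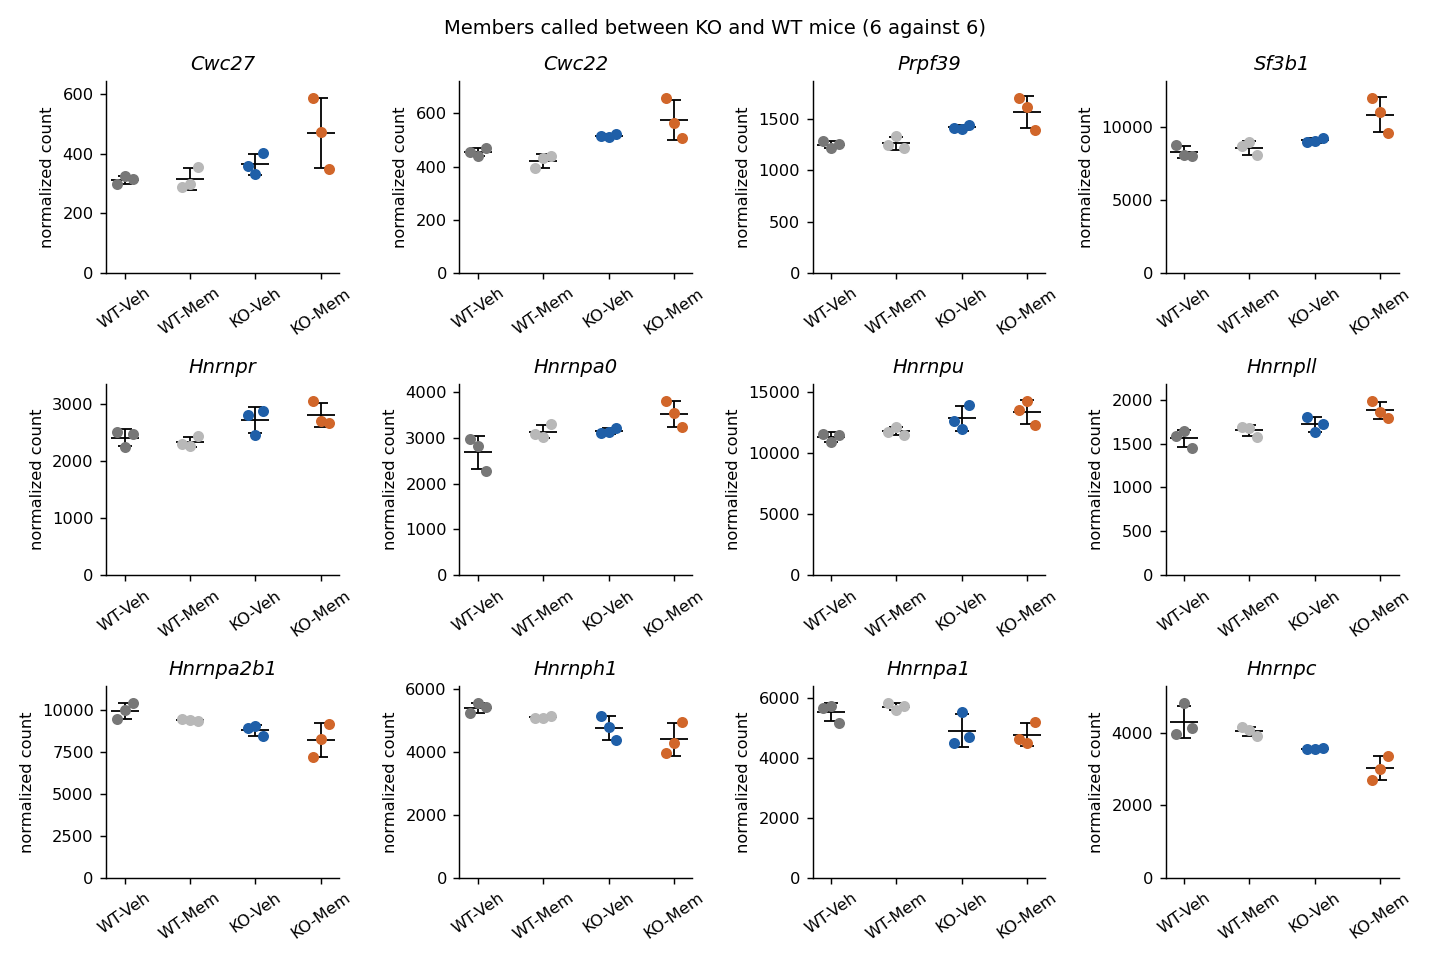
Normalized counts of the 12 called genes in each mouse (points), with the group mean and SD (bars), 3 mice in each of the 4 groups; every vertical axis starts at 0. In Cwc22, Prpf39, Hnrnpc and Hnrnpa2b1 the 6 KO and the 6 WT mice do not overlap, and for Cwc27 and Sf3b1 the highest points are KO-Mem mice.

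Over all 79 genes, 2 members lay higher and 3 lower in all 6 KO mice than in all 6 WT mice, where 1.86% and 2.20% of all genes did so upward and downward. The third lower one was Snrpa, the U1 protein that binds stem loop II, whose closest KO and WT mice were practically tied and which was not called (log2 fold change -0.13, adjusted p 0.0769). The members nearest past the threshold were chosen after their values were seen: Srsf12 at 0.18 (adjusted p 0.0704), Srsf7 at -0.15 (0.0765) and Srsf3 at -0.16 (0.0768). Transcripts of the 8 genes that rose had a median length of 3159 bases and a median GC content of 41.6%, against 1981 bases and 43.3% for the 4 that fell.

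The number of called members depended on single mice. It was 4 without WT-Mem 1, KO-Veh 3, KO-Mem 1 or KO-Mem 2, 5 without WT-Veh 2 or WT-Mem 3, 6 without WT-Mem 2 and 15 without KO-Mem 3. The calls over all genes moved alike, from 1907 with all mice to 967, 694, 801 and 807 in the fits with 4 members called, 1091 and 1072 in those with 5, 1182 in that with 6 and 2683 without KO-Mem 3. With eBayes without trend, 3 members (Cwc22, Prpf39 and Hnrnpc) and 894 genes in all were called. Cwc22, Prpf39 and Hnrnpc were called in all 12 fits that left out a mouse and Sf3b1 in 11, the exception being the fit without KO-Mem 2. Hnrnpr was called in 7, Hnrnpu in 6, Hnrnpa1 and Hnrnph1 in 5, Hnrnpa2b1 in 4, Hnrnpll in 3, and Cwc27 and Hnrnpa0 in 2 of them. Among KO-Mem mice, the median deviation of the 8 risen genes from the 12-mouse mean was 0.30 in KO-Mem 1, 0.21 in KO-Mem 2 and 0.06 in KO-Mem 3 (log2), and that of the 4 fallen genes was -0.32, -0.20 and 0.01. Oligodendrocyte markers also fell with genotype (5 of 6 called, median -0.32), and in bulk tissue fewer cells of a type and less RNA per cell cannot be told apart. Their part in the differences of the splicing genes was not tested.

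Promoter sequences were read for those called genes whose calls depended least on single mice, together with Hnrnpa1 as another fallen gene, a choice made after the values were seen. They come from RefSeq (GRCm38.p6), run from 250 bases before to 50 bases after an annotated start, and are written 5′ to 3′ on the strand of the gene. Cwc22 is left out because none of the motifs searched was found in its window. Capitals mark CCAAT boxes (CCAAT) and GC boxes (GGGCGG), found on either strand. The windows are chr14:52103972-52104271 (minus strand) for Hnrnpc, chr15:103240147-103240446 (plus) for Hnrnpa1, chr12:65036084-65036383 (plus) for Prpf39, and chr1:55027429-55027728 (minus) for Sf3b1.
Hnrnpc: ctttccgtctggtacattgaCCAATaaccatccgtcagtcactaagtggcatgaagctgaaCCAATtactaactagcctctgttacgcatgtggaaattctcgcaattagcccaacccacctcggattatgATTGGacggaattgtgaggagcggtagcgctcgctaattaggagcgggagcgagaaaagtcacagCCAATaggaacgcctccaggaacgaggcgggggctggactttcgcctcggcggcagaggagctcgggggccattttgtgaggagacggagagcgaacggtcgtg
Hnrnpa1: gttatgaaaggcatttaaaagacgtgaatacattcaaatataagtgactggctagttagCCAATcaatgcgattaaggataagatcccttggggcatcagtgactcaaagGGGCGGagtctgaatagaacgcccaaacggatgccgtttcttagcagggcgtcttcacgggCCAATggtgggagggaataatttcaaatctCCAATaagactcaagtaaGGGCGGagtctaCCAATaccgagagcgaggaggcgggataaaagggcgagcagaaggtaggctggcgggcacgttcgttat
Prpf39: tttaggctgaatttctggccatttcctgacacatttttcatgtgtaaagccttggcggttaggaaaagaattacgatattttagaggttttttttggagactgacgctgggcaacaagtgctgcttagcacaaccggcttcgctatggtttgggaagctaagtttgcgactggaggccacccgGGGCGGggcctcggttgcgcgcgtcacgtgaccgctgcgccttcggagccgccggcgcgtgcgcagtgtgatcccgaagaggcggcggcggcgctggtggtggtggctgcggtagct
Sf3b1: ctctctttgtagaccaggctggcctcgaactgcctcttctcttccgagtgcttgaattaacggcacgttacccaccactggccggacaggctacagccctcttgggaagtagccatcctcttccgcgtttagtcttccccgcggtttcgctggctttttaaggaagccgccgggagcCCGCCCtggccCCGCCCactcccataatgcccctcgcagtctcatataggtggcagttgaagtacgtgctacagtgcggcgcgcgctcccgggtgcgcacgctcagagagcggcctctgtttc
The windows of Hnrnpc and Hnrnpa1 each held 4 CCAAT matches, and that of Hnrnpa1 also 2 GC boxes. Prpf39 had 1 GC box and Sf3b1 had 2, and neither held a CCAAT match. All 4 fallen genes had a CCAAT match in at least 1 of their windows, as did 3 of the 7 risen genes with a sequence. Hnrnpr, which rose, also had 4 CCAAT matches in 1 window, whereas the fallen Hnrnpa2b1 and Hnrnph1 had at most 1 in any window. The genes had unequal numbers of windows, and a difference between risen and fallen genes was not tested.

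Sequences were found for 69 of the 79 members, in 91 windows, and were searched on both strands for the TATA box (TATAAA), for the CCAAT box, for the GC box (GGGCGG), for an ETS motif (CCGGAAG) and for 10-base NRF1 and YY1 motifs, none of which contains another, although matches may overlap at their ends. CCAAT was found in 49.3% of the members and in 42.4% of 11652 protein-coding genes. For GGGCGG the shares were 69.6% and 66.6%, for CCGGAAG 33.3% and 17.7%, and for TATAAA 11.6% and 9.05%. The NRF1 motif occurred in 1.45% of members and 2.10% of all genes, and the YY1 motif in 4.35% and 2.07%. A match describes letters in the window and not a bound site.

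Under vehicle, the baseline difference between genotypes (Veh-K/W transcripts) reached the threshold in none of the members. With limma, 0 of 79 were called, where 5 of 17671 genes (0.0283%) were. Of the members, 5 were higher and 4 lower in KO-Veh mice at an unadjusted p under 0.05, against 6.73% and 7.68% of all genes. The groups did not overlap in 11 members upward and 7 downward, where 9.73% and 10.7% of all genes did not. The median log2 fold change of the members was -0.04 (all genes 0.00), and 35 of 79 (44.3%) were above 0, against 50.4% of all genes. Hnrnpc had the smallest p value of the set (-0.27, SE 0.08, adjusted p 0.186), followed within their families by Prpf39 (0.18, adjusted p 0.274), Srsf7 (-0.15, 0.305), Sf3b1 (0.13, 0.341), Cwc22 (0.18, 0.351) and Snrpa (-0.14, 0.384). Lsm5, the lowest member of the set with about 53.1 normalized counts, was at 45.0, 33.1 and 39.0 in WT-Veh and 53.6, 63.2 and 42.5 in KO-Veh mice (0.43, SE 0.24, adjusted p 0.434). U2af1l4, a short relative of the 3′ splice site protein U2af1, differed least among the family leaders (-0.08, adjusted p 0.732).

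After memantine, the genotype difference (Mem-K/W transcripts) was again below the threshold for every member in limma. None of the 79 was called, against 12 of 17646 genes (0.0680%), and the smallest adjusted p was 0.0884. With DESeq2 on the same mice, the study called many more genes, Sf3b1 among them. At an unadjusted p under 0.05, 12 members were higher and 7 lower in KO-Mem mice, and 10.1% and 10.8% of all genes were. Groups did not overlap in 15 members upward and 11 downward, with 12.7% and 13.5% of all genes. Of the members, 49 of 79 (62.0%) lay above 0, against 50.3% of all genes, with a median of 0.05 (all genes 0.00). Without KO-Mem 3, 13 members were called, 8 of them higher, and 1911 genes in all. With all 12 mice in 1 fit, 5 members were called, 4 of them higher, and 636 genes in all. Prpf genes lay above 0 in 11 of 13 (median 0.11) and Cwc genes in 4 of 4 (median 0.25), whereas Sf3 did in 5 of 9, Snrp in 6 of 12, Srsf in 7 of 11, Hnrnp in 13 of 20, Lsm in 2 of 7 and U2af in 1 of 3.

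Of the members with the smallest p value in each family, 4 were also called in the pooled comparison, which includes these mice. They were Hnrnpc (-0.42, SE 0.08, adjusted p 0.0884), Sf3b1 (0.34, SE 0.08, 0.0957), Cwc22 (0.44, SE 0.12, 0.101) and Prpf39 (0.31, SE 0.09, 0.120). To these came Srsf11, an SR-related protein known for neural microexons, which was at 5031, 5321 and 4802 in WT-Mem and 6512, 5854 and 5767 in KO-Mem mice. All 3 KO-Mem mice were above the WT-Mem mice (log2 fold change 0.26, SE 0.07, limma adjusted p 0.106). Snrpg, an Sm ring protein, was at 357, 341 and 363 in WT-Mem and 279, 269 and 304 in KO-Mem mice, with no overlap (-0.32, SE 0.11, adjusted p 0.146). Lsm2 (-0.27, adjusted p 0.348) and U2af2 (-0.09, adjusted p 0.415) led the remaining families.

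Veh-K/W and Mem-K/W share no mice, so their values can be set side by side. In 53 of the 79 members (67.1%) the 2 log2 fold changes had the same sign, and Pearson's r across genes was 0.61, where the points share their libraries and are not independent replicates. Of the members, 7 had an unadjusted p under 0.05 in both, all with the same sign. In 53 of 79 the log2 fold change was larger in size in Mem-K/W. The median size was 0.0909 in Veh-K/W and 0.108 in Mem-K/W over the members, and 0.125 and 0.157 over all genes. Over protein-coding genes with a mean of at least 200 it was 0.0945 and 0.118, close to the members. For KO-M/V and WT-M/V, which also share no mice, the signs matched in 42 of 79 (53.2%), with an r of 0.22. The sign matches, the r values and the count of 7 were taken over the members alone. Without the same values over all genes, they do not show a trait particular to the members.

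**Figure D4:**
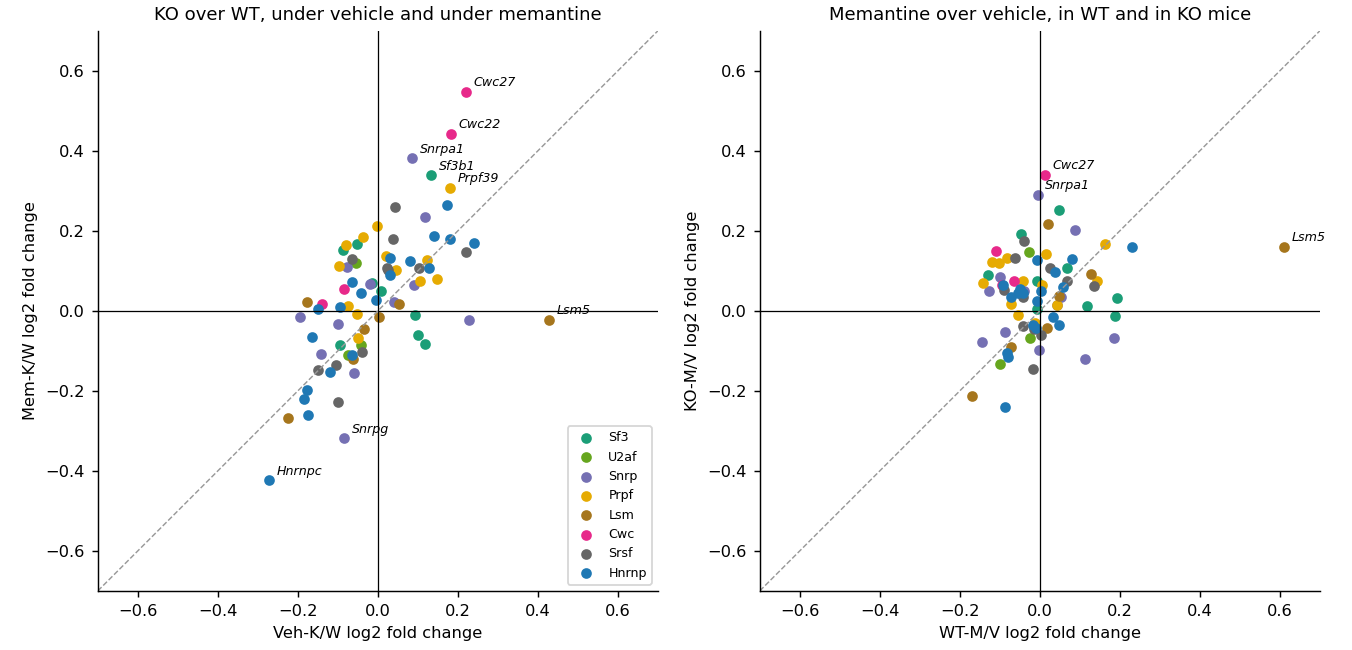
Log2 fold changes of the 79 genes, coloured by family: on the left Mem-K/W (vertical) against Veh-K/W (horizontal), on the right KO-M/V against WT-M/V; the dashed line marks equal values. On the left Cwc27, Cwc22, Sf3b1, Prpf39 and Hnrnpc lie farther from 0 under memantine than under vehicle, whereas Lsm5 lies farther under vehicle (0.43). On the right the points scatter round 0. Pearson's r was 0.61 on the left and 0.22 on the right.

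Memantine in KO mice (KO-M/V transcripts) left all members short of the threshold. In limma 0 of 79 were called, and 0 of 17707 genes (0.00%). At an unadjusted p under 0.05, 6 members were higher and 1 lower, against 4.34% and 4.54% of all genes. Groups did not overlap in 10 members upward and 1 downward, where 7.10% and 6.82% of all genes did not. The members lay above 0 in 55 of 79 (69.6%), against 49.7% of all genes, with a median of 0.05 (all genes 0.00). In Sf3 8 of 9 were above 0 (median 0.08), in Prpf 11 of 13 (0.07) and in Cwc 4 of 4 (0.11), with Snrp at 7 of 12, Srsf at 7 of 11, Hnrnp at 13 of 20, Lsm at 4 of 7 and U2af at 1 of 3.

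The study named Sf3b1, Snrpa1, Snrpb, Cwc27 and the helicase Dhx15 for a U2-type spliceosome set that it tested on these mice, so their direction here is not independent of that choice. By gene-set enrichment it reported that set, and RNA splicing sets, as raised by memantine in KO mice. With quantitative PCR it found a tendency of Sf3b1 to be higher in KO-Mem than in KO-Veh mice. Enrichment of sets was not tested here. Sf3b1 averaged 9101 under vehicle and 10882 under memantine in KO mice (n = 3 each), with no overlap, but did not pass the test (log2 fold change 0.25, SE 0.07, limma adjusted p 0.554). Snrpa1, the U2 protein A′, was at 439, 471 and 499.9 under vehicle and 655, 587 and 492 under memantine in KO mice (0.29, SE 0.12, adjusted p 0.555). Snrpb, the ubiquitous Sm B protein, was at 1597, 1649 and 1552 under vehicle and 2066, 1840.2 and 1640.4 under memantine in KO mice (0.20, SE 0.09, adjusted p 0.557). In both genes KO-Mem 3 overlapped the KO-Veh mice. Cwc27 differed by 0.34 (SE 0.17, adjusted p 0.579), and Dhx15, which releases the intron lariat and is not a member, by 0.18 (SE 0.07, adjusted p 0.554). Without KO-Mem 3, 1 member was called, which was Sf3b1 (0.34, adjusted p 0.0445), and 97 genes in all.

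Snrpn, whose product closely resembles that of Snrpb and which is expressed from the paternal allele, was examined beside it. Its normalized counts were 21067, 20417 and 21438 under vehicle and 21742, 22055 and 20695 under memantine in KO mice, which overlap (log2 fold change 0.04, SE 0.04, adjusted p 0.802). In the pooled genotype fit Snrpn was at 0.03 (adjusted p 0.656), Snrpb at 0.18 (0.100) and Snrpa1 at 0.23 (0.127). The difference between the paralogs was not tested. In the other families of KO-M/V transcripts, the smallest p belonged to Hnrnpc (-0.24, adjusted p 0.554), Srsf11 (0.18, 0.554), Prpf38b (0.13, 0.561), U2af1 (0.15, 0.562) and Lsm3 (0.22, 0.616). The 95% interval of a member, without adjustment for the number of genes tested, extended by a median of 0.18 to either side of its log2 fold change. For a member with an interval of that width, an estimated log2 fold change below 0.18 could thus not be told from 0 with 3 mice a group. Larger changes could also miss the adjusted threshold, since members with log2 fold changes up to 0.34 were not called.

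Memantine in WT mice (WT-M/V transcripts) gave smaller differences. In limma 0 of 79 members were called, against 2 of 17564 genes (0.0114%), with a smallest adjusted p of 0.978. At an unadjusted p under 0.05, 2 members, Hnrnpa0 (0.23) and Lsm5 (0.61), were higher and 0 lower, where 1.50% and 2.47% of all genes were. Lsm5 was at 41.8, 66.8 and 75.8 in WT-Mem mice, 1 of which fell within the WT-Veh range. The median over members was -0.01 (all genes 0.00), and 32 of 79 (40.5%) lay above 0, against 50% of all genes (8790 of 17564).

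Over both genotypes (6 memantine against 6 vehicle mice, genotype as a covariate), 0 members and 0 of 17655 genes (0.00%) were called in limma. At an unadjusted p under 0.05, 7 members were higher and 1 lower, against 3.64% and 4.97% of all genes. Hnrnpa0 led with 0.19 (SE 0.06, adjusted p 0.437). The interaction, which asks whether the genotype difference changed with memantine, also called 0 members and 0 genes (0.00%). At an unadjusted p under 0.05 it gave 2 members above 0 and 0 below, where 2.41% and 2.34% of all genes were. They were Prpf6, a tri-snRNP bridge protein (0.22, SE 0.09), and Srsf11 (0.21, SE 0.09), both with an adjusted p of 0.947. The larger genotype differences after memantine were thus not shown to differ from those under vehicle for any single member.

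KO-Mem against WT-Veh mice (KO-M/WT-V transcripts) was the pairwise comparison in which members passed the threshold. In limma 2 of 79 members were called, against 595 of 17662 genes (3.37%). Sf3b1 rose (0.39, SE 0.08, adjusted p 0.0420), where 1.32% of all genes rose, and Hnrnpc fell (-0.51, SE 0.10, adjusted p 0.0322), where 2.05% fell. In both genes the 3 mice of one group lay apart from the 3 of the other. Of the members, 15 were higher and 7 lower at an unadjusted p under 0.05, against 12.6% and 13.2% of all genes, and the groups did not overlap in 19 members upward and 8 downward, against 15.5% and 15.6%. The count was 0 when WT-Veh 1, WT-Veh 2, WT-Veh 3, KO-Mem 1 or KO-Mem 2 was left out and 16 without KO-Mem 3, and both genes were called only in the last of these 6 fits. Over all genes these fits called 54, 3, 4, 1, 1 and 2490. Markers moved in the same comparison, with 5 of 6 oligodendrocyte markers (median -0.52), 4 of 5 red blood cell genes (median -1.37) and 1 of 6 each of the interneuron, astrocyte and oligodendrocyte precursor markers called lower, and their part in the result was not tested. In WT-M/KO-V transcripts (WT-Mem against KO-Veh mice), 0 members were called in limma, where 4 of 17648 genes (0.0227%) were. Of the members, 2 were higher and 3 lower at an unadjusted p under 0.05, against 4.71% and 4.23% of all genes.

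Family medians also differed between single mice, in families with and without called genes. Over the 12 mice the median deviation ran from -0.05 to 0.06 in Hnrnp, which held 8 of the 12 called genes, and from -0.09 to 0.20 in Lsm and -0.08 to 0.13 in Snrp, which held none. The median deviation of the Prpf family from its 12-mouse mean was 0.14 in KO-Mem 1, 0.08 in KO-Mem 2 and 0.02 in KO-Mem 3 (log2). For the Cwc family it was 0.27, 0.16 and -0.02 in these mice and -0.21, -0.17 and 0.03 in WT-Mem mice. The Lsm family stood highest in WT-Mem 3, at 0.20. Together the 79 genes held 0.708% to 0.729% of the summed values in WT-Veh mice, 0.710% to 0.727% in WT-Mem, 0.712% to 0.739% in KO-Veh and 0.735% to 0.757% in KO-Mem mice.

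**Figure D5:**
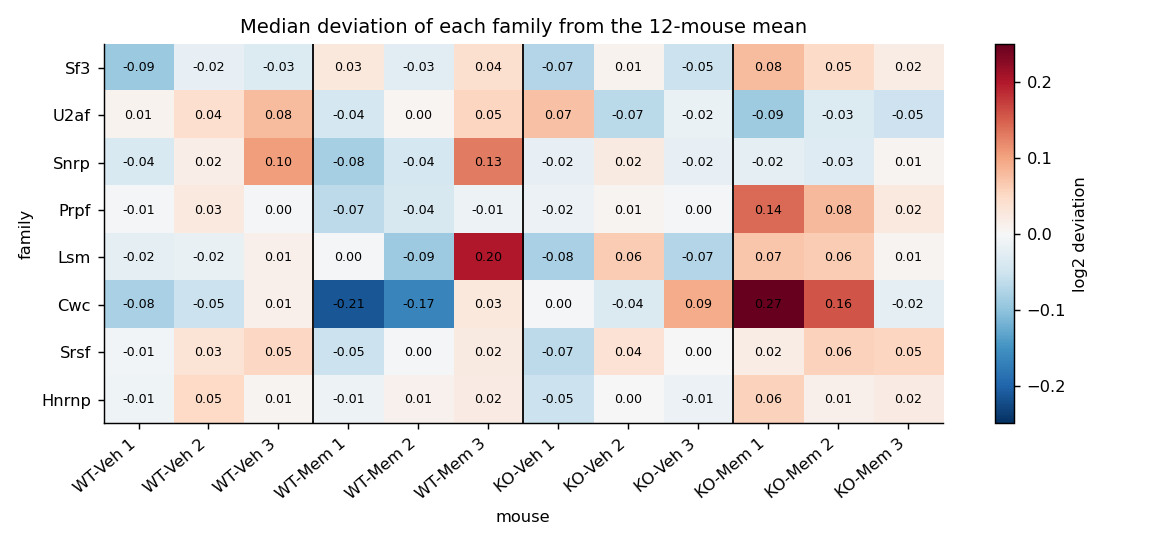
Median over the genes of each family (rows) of the log2 deviation from the gene's 12-mouse mean, for each of the 12 mice (columns), with vertical lines between groups. Cwc and Prpf are highest in KO-Mem 1 (0.27 and 0.14) and near 0 in KO-Mem 3, and Lsm is highest in WT-Mem 3 (0.20).

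Outside the 79 genes, 113 other splicing genes were listed in 7 groups, of which 111 were tested. In the pooled genotype fit 8 of these rose and 5 fell, with a median of 0.02, and 66 of 111 lay above 0, where 4.89% of all genes rose, 5.91% fell and 50.9% lay above 0. Among neural splicing regulators 3 of 26 rose and 1 fell, and among other snRNP proteins 1 of 22 rose and 2 fell. Of the branch point and general factors 2 of 17 rose (Sugp1 at 0.22 and Sfpq at 0.19), of the helicases 1 of 13 rose (Ddx17 at 0.22), and of the Prp19 complex 1 of 17 rose (Wbp11 at 0.16) and 1 fell (Ppil1 at -0.19). Of 11 SR-related genes 1 fell, and of 5 exon junction complex genes 0 were called in limma, with 1 at an unadjusted p under 0.05. In KO-M/V transcripts 0 of 111 were called, 7 were higher and 2 lower at an unadjusted p under 0.05, and 75 lay above 0, against 4.34%, 4.54% and 49.7% of all genes.

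Ptbp2, the neuronal polypyrimidine tract-binding protein that holds back adult exons, was at 2413, 2111 and 2219 for the WT-Veh mice, 2366, 2254 and 2151 for the WT-Mem mice, 2584, 2530.2 and 2820.5 for the KO-Veh mice and 3507, 3064 and 2662 for the KO-Mem mice. It did not overlap between genotypes (log2 fold change 0.34, SE 0.07, limma adjusted p 0.0109), and in KO-M/WT-V transcripts it rose by 0.45. Tra2a, an SR-like activator of exons, was at 2554, 2326 and 2688 for the WT-Veh mice, 2317, 2503 and 2213 for the WT-Mem mice, 2119.6, 2048 and 1751 for the KO-Veh mice and 1049.6, 1376 and 1975 for the KO-Mem mice. Every KO mouse was below every WT mouse, and the lowest were KO-Mem 1 and 2 (-0.54, SE 0.12, adjusted p 0.0158). Rnpc3, a protein of the minor spliceosome, was at 883 to 1033 in WT and 1047 to 1425 in KO mice, again with no overlap (0.33, SE 0.07, adjusted p 0.0179). The other called genes named from these lists included Txnl4a (-0.46, adjusted p 0.0215), Snu13 (-0.19, 0.0413), Khdrbs3 (-0.17, 0.0289) and Celf3 (0.14, 0.0472).

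Markers of other cells moved with genotype as well. In the pooled fit 5 of 6 oligodendrocyte markers fell, with a median of -0.32. Their summed normalized counts were 329081 to 407701 for the WT-Veh mice, 294380 to 345277 for the WT-Mem mice, 285943 to 305397 for the KO-Veh mice and 237444 to 280479 for the KO-Mem mice. Also 4 of 6 endothelial markers, 4 of 5 red blood cell genes (median -0.78), 2 of 6 astrocyte, 2 of 6 oligodendrocyte precursor and 1 of 6 microglial markers fell, as did 4 of 13 mitochondrially encoded mRNAs. Of the interneuron markers 2 rose and 1 fell, and of the excitatory neuron, striatal, choroid plexus and cerebellar markers 0 were called in limma, with 2, 2, 1 and 1 at an unadjusted p under 0.05. Nuclear long noncoding RNAs, a rough gauge of nuclear RNA in a library, were all 5 above 0 (median 0.14) with 0 called and 3 at an unadjusted p under 0.05, and summed to 265540 to 344719 in WT and 295545 to 361469 in KO mice. In Mem-K/W transcripts all 5 were above 0 (median 0.27), with 0 called and 4 at an unadjusted p under 0.05. In Veh-K/W transcripts 3 of these 5 were above 0 (median 0.03), with 0 called and 1 at an unadjusted p under 0.05. Forebrain excitatory markers were well expressed in every mouse, and 1 of the 6 cerebellar genes was at 0 in all WT-Mem mice. The summed cerebellar markers reached 6906 in 1 KO-Veh mouse, against 4203 to 5050 in the other mice. In Veh-K/W transcripts all 6 lay above 0 (median 1.14), with 0 called in limma and 1 at an unadjusted p under 0.05. As above, the part of these shifts in the differences of the splicing genes was not tested.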

How the data were processed

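The authors quantified transcripts with Salmon (1.1.0 in the submitters' processing notes) (quasi-mapping, corrected for GC bias) against GRCm38, summed them to genes with tximport and deposited normalized counts, a signal scaled by DESeq2 (1.26.0) over the 12 mice and not log transformed. Whole reads could not be recovered from them, so depth is unknown, a count test was not used, and group membership and replicate numbers came from the labels. The annotation release and gene filter are not given in the sources used here. Symbols, positions and lengths came from GENCODE M21, which matched 19295 of 19312 genes.

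Genes with a mean of at least 10 over the mice of a fit were tested with limma 3.58.1 in R 4.3.3 (eBayes with trend) on log2(value + 1), and p-values were adjusted over all genes tested by the Benjamini-Hochberg method. Called means an adjusted p under 0.05. The 6 pairwise comparisons used their own 6 mice, and the pooled and interaction fits all 12. Replicates are separate mice. The same replicate number did not pair mice (correlations of deviations from -0.175 to 0.0802). The scripts were tested on simulated data. Alternatives covered the pseudocount, the filter, the scaling, the variance model, the samples in the fit and each mouse left out.

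The named genes were members called in any of 9 comparisons, the member with the smallest p in each family in KO-M/V, Mem-K/W and Veh-K/W, the highest and lowest member per kb of each family, the genes the study named for its U2-type spliceosome set, Snrpn with Snrpb, and at most 3 called genes of each list of other splicing genes. The members and lists were chosen with earlier results of these data known.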

Additional observations from a re-analysis of the deposited data

Results flagged for a closer look

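Prpf4, a U4/U6 particle protein, stood out because the KO-Veh mice were all below the WT-Veh mice, while the KO-Mem mice were all above the WT-Mem mice. It was the only gene found when the 79 members were searched for such opposite patterns. The share of all genes with this pattern was not computed, and under vehicle the closest KO and WT mice were nearly tied. Its normalized counts were 644, 653 and 677 for the WT-Veh mice, 599, 611 and 579.9 for the WT-Mem mice, 641, 623 and 582 for the KO-Veh mice and 663, 628 and 643 for the KO-Mem mice. The interaction was 0.21 on the log2 scale (SE 0.10), with a limma adjusted p of 0.947 and an unadjusted p of 0.0618, so it did not pass the correction. Both p-values come from the values by which Prpf4 was picked and are no independent test of it. Groups of 3 mice were too small to test for single outlying mice.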

How the results depend on the processing

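Most results kept their direction, and no called gene changed sign in any alternative, but 2 medians over the members did. Calls were less stable. Of the 12 members called in the pooled genotype fit, only Cwc22, Prpf39 and Hnrnpc kept their calls in all 12 fits that left out a mouse. For the pooled genotype comparison, 12 members were called, 3 with eBayes without trend and 4 to 15 when 1 mouse was left out. In Mem-K/W the count was 0, but 5 (4 higher, of 636 genes called in all) with all 12 mice in 1 fit, and 0 to 13 when 1 mouse was left out. For KO-M/V it was 0 to 1 with a mouse left out. In KO-M/WT-V the 2 called members became 1 with no filter, 0 with eBayes without trend, 13 with all 12 mice in 1 fit, and 0 to 16 with a mouse left out. Over the fits that left out a mouse, the median log2 fold change of the members went from -0.0451 to 0.00209 in Veh-K/W (above 0 without WT-Veh 3) and from -0.0198 to 0.0187 in WT-M/KO-V (0.00415 with all mice, also below 0 with median-ratio and quantile scaling). It went from 0.0272 to 0.0896 in KO-M/WT-V, 0.0271 to 0.0671 in KO-M/V, 0.0253 to 0.0716 in Mem-K/W, -0.0417 to -0.000924 in WT-M/V, 0.00832 to 0.0386 in the pooled genotype fit, 9.6e-05 to 0.0230 in the pooled memantine fit and 0.0228 to 0.0611 for the interaction. The cause was not tested. With the replicate number as a block, which does not pair these mice, 11 members were called in the pooled genotype fit, Cwc27 losing its call (adjusted p 0.0611), and 3 in KO-M/WT-V, while the other comparisons stayed at 0. Among single named genes, Celf3, Ppil1 and Wbp11 also lost their calls with the block, with adjusted p-values of 0.0567, 0.0547 and 0.0518. Over all named genes and settings, 879 kept their side, 193 weakened and 11 strengthened. Only genes called with the main settings could weaken, and the 879 include genes that were not called with them.
With 3 mice a group and unknown depth, the precision is set by the spread between mice: the median SE of a member was 0.06 in the pooled fits, 0.08 to 0.09 in pairwise fits and 0.12 for the interaction.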
